A study of Mus musculus with 6 samples.

Results

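Transcription factors that divide the embryonic spinal cord and hindbrain into domains were followed in RNA labelled as coming from oligodendrocyte precursor cells of mouse cortex. The list holds 42 genes of the 55416 in the files, and all 42 were found by symbol. It was chosen by name from textbook roles with no threshold on a value, but it was drawn up with the levels and the group difference of these data already known. The values below are therefore a description of the list, and the adjusted p-values, taken over all genes tested, only place each gene within the whole fit.

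The samples were pools of cells from the cortices of 4 to 6 mice at postnatal day 11. In the 3 Ift88 control samples the mice carried Pdgfra-Cre, a RosaEYFP reporter, 1 floxed and 1 wild-type copy of Ift88. The 3 Ift88 cKO samples differed in that both copies were floxed, so Cre and reporter were shared by all samples. Ift88 codes for a component of intraflagellar transport, on which assembly of the primary cilium depends. Cre was driven by the promoter of Pdgfra, a growth factor receptor gene of oligodendrocyte precursors that connective tissue cells of the meninges also express. P-values here reflect how much pools vary, and in bulk RNA fewer cells of a type and less RNA per cell cannot be told apart.

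In the embryo, Sonic hedgehog from the floor plate and BMP and Wnt signals from the roof plate set up bands of progenitors along the dorsal to ventral axis of the neural tube. Each band switches on its own homeodomain and basic helix-loop-helix factors, and these repress the factors of neighbouring bands. Daughter neurons then take up LIM homeodomain, Pax, forkhead or GATA factors that mark dorsal interneurons (dI classes), ventral interneurons (V classes) or motor neurons. Several of the same genes are used elsewhere, such as Pax6 and Lhx2 in the developing cortex, Foxp1 in cortical neurons and Maf in cortical interneurons and macrophages.

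Depth was even in 5 libraries and low in the sixth. Total counts were 11773548 to 13909236 in the 5 deeper libraries and 568509 in cKO replicate 2, which is shown apart. In that library a gene with 0 counts could still have a level of 5.28 CPM (counts scaled to a library total of 1000000), against 0.216 to 0.255 CPM elsewhere; these limits cover counting error only. Reads came from the 3' ends of transcripts, so CPM were compared and added across genes without a length correction. Ift88 had 143, 32 and 167 counts in the 3 controls, against 1, 0 and 305 in the cKO libraries, so cKO replicate 3 exceeded every control. The deposited counts do not show whether these 3' tags lie in the floxed part, so they check no label. Of 15 oligodendrocyte precursor markers, 9 had at least 20 counts in some library and 6 had no count in any, among them Sox10 and Gpr17. Pdgfra had 0, 59 and 56 counts among controls and 155, 0 and 121 in cKO replicates 1 to 3. Cspg4 had 110, 1 and 174 counts against 273, 2 and 159. Olig1 and Olig2 had 32 and 67 counts in cKO replicate 3 and 0 in all other libraries. All 17 neuron markers had at least 20 counts in some library. The neuron markers summed to 1863 to 6811 CPM among controls and 7388 and 7446 CPM in cKO replicates 1 and 3, with 2172 CPM in cKO replicate 2. The precursor markers summed to 234 to 487 CPM among controls, to 225 and 222 CPM in cKO replicates 1 and 3, and to 7.04 CPM in cKO replicate 2. In the 5 deeper libraries most of that sum came from Ptprz1 and C1ql1. The part of neurons and precursors in the results was not tested. Markers that define cortex were also sparse: Emx1 and Emx2 had 0 counts in all libraries.

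Of the 42 factors, 31 had at least 20 counts in some library (29.9% of all genes did), 2 had fewer (Neurog1 and Gata3) and 9 had none. Detection differed between groups of factors. At 20 counts, 18 of 20 dorsal factors, 9 of 15 ventral factors and 4 of 7 motor neuron factors were seen. Per library, 17, 23 and 17 factors reached this level in the 3 controls, against 16, 2 and 21 in the cKO libraries in replicate order. Only Pou4f1, Maf, Pax6 and Foxp1 reached it in each of the 5 deeper libraries, whereas 49.7% of all genes with 20 counts anywhere did. The heat map of counts shows how often a factor was present in some libraries of a group and absent in the others.

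**Figure D1:**
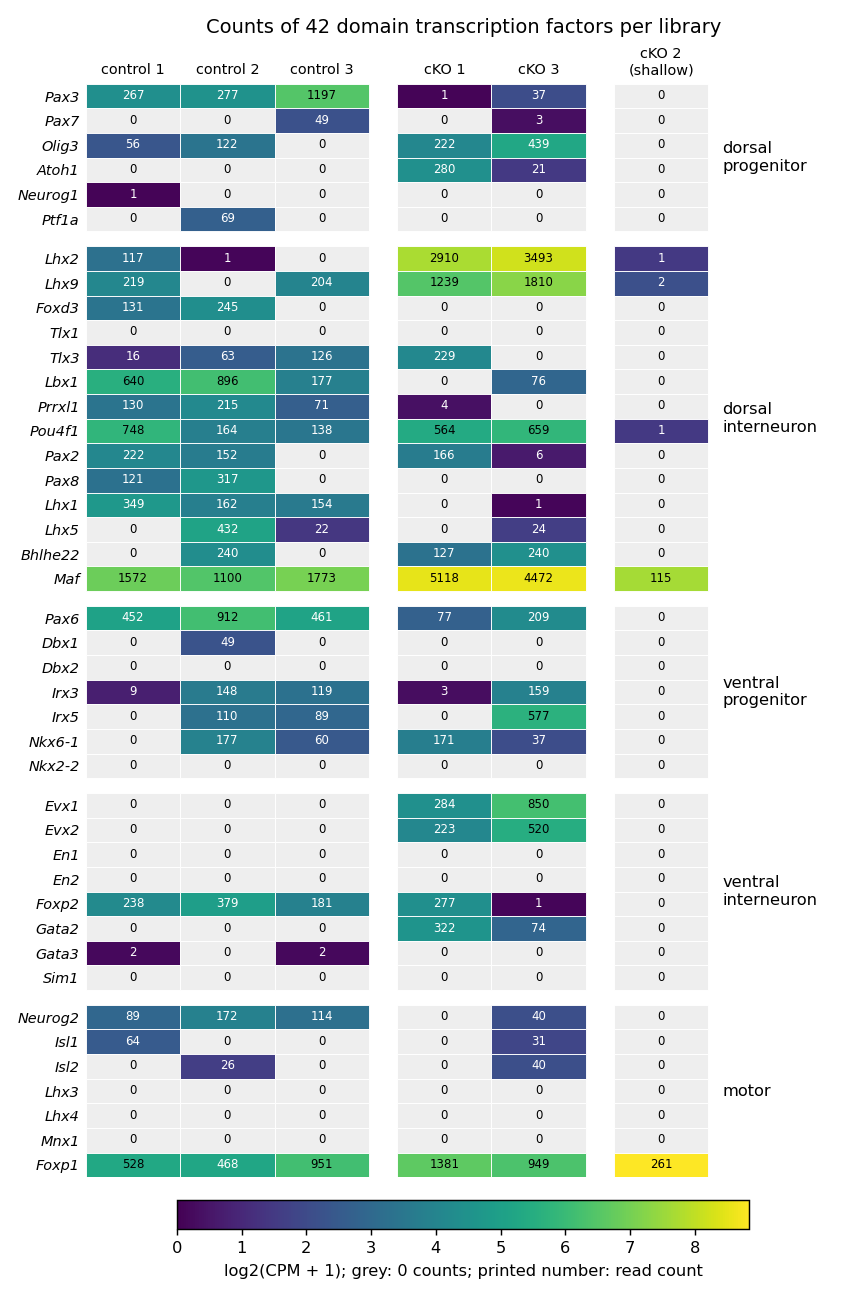
Read counts of the 42 factors (rows, by domain) in each library (columns), coloured by log2(CPM + 1), with 0 counts in grey and cKO replicate 2 set apart. A reader should see the block of dorsal interneuron factors, the factors with 0 counts throughout, and cKO replicate 2 with counts almost only for Maf (115) and Foxp1 (261).

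Presence and absence within a group were common for these genes. Among 22 factors with at least 100 counts in a control library, 10 had 0 counts in another control library, while 15.2% of all such genes did. Between cKO replicates 1 and 3 it was 2 of 18 factors (Tlx3 and Irx5), against 9.39% of all genes. None of the last 500 exon bases of any of the 42 factors is shared with another annotated gene. In 11 factors other exon bases are shared with a second gene, as Evx1 shares some with Evx1os and Irx3 with Irx3os, and every such partner had 0 counts in all libraries.

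The dorsal progenitor factors showed different patterns from one another. Pax3, the paired box factor of the whole dorsal neural tube and of neural crest, had 267, 277 and 1197 counts among controls and 1, 0 and 37 in cKO replicates 1 to 3. Every control was above every cKO library. The log2 fold change was -5.09 (SE 2.1, edgeR adjusted p = 1), or -4.73 without cKO replicate 2. It was -9.08 without cKO replicate 3, which held nearly all cKO counts of Pax3. Pax7, its close relative, had 49 counts in control replicate 3, 3 in cKO replicate 3 and 0 elsewhere. Olig3, a helix-loop-helix factor of the most dorsal progenitors, had 56, 122 and 0 counts among controls and 222, 0 and 439 in the cKO libraries, so that only the 2 deeper cKO libraries exceeded all controls.

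Atoh1, the factor that specifies dI1 neurons and cerebellar granule cell precursors, had 0 counts in all controls and 280, 0 and 21 in the cKO libraries. Ptf1a, which directs dorsal progenitors to an inhibitory fate, had 69 counts in control replicate 2 and 0 elsewhere. Neurog1, a factor of dI2 progenitors and of sensory neurons, had a single count in control replicate 1. Together the 6 dorsal progenitor factors summed to 23.7, 36.7 and 91.8 CPM among controls and 36.2, 0 and 42.5 CPM among cKO libraries, and the groups overlap.

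Factors of the dI1 class were the most abundant interneuron factors in the cKO libraries after Maf. Lhx2 had 117, 1 and 0 counts among controls and 2910, 1 and 3493 in the cKO libraries. Lhx9, its partner in dI1 neurons, had 219, 0 and 204 counts against 1239, 2 and 1810. In both genes cKO replicates 1 and 3 lay far above every control, while cKO replicate 2 lay within the control range, with 1.76 CPM of Lhx2 and 3.52 CPM of Lhx9. Group means were 2.88 ± 4.93 and 169 ± 151 CPM for Lhx2 and 10.4 ± 8.99 and 82.1 ± 75.4 CPM for Lhx9 (SD, n = 3). The log2 fold change was 5.85 (SE 2.13) for Lhx2 and 3.00 (SE 1.86) for Lhx9, with an adjusted p of 1 in edgeR's quasi-likelihood test. Without cKO replicate 2 the values were 6.41 (SE 1.76) and 3.56 (SE 1.47), with an edgeR adjusted p of 0.767 for each. Lhx2 was at 11.70 without control replicate 1, which left a single control count. Barhl1 and Barhl2, which act downstream of Atoh1 in the same class and are no members of the list, had 103 and 0 counts in cKO replicate 1, 172 and 91 in cKO replicate 3, and 0 in all other libraries.

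Lbx1, the homeodomain factor of the inhibitory and excitatory dI4 to dI6 classes, had 640, 896 and 177 counts among controls and 0, 0 and 76 in the cKO libraries. Lhx1, a LIM factor of inhibitory dI4 and several ventral classes, had 349, 162 and 154 counts against 0, 0 and 1. Controls and cKO libraries did not overlap in either gene. The ratio of pooled CPM of Lhx1, control over cKO, was 437 with an exact 95% counting interval of 78.1 to 17274, on the assumption that each read is a separate molecule. The fitted log2 fold changes were -4.23 (SE 1.99) for Lbx1 and -8.39 (SE 3.27) for Lhx1, each with an adjusted p of 1 in edgeR's quasi-likelihood test. Without cKO replicate 3, Lbx1 had no cKO count and its fitted value, which then depends on the prior count, was -11.90.

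Pax2, a factor of inhibitory dI4 and dI6 neurons, had 222, 152 and 0 counts among controls and 166, 0 and 6 in the cKO libraries, and these ranges overlap. Pax8, which follows Pax2 in the same neurons, had 121, 317 and 0 control counts and none in the cKO libraries. Lhx5, the relative of Lhx1, had 0, 432 and 22 counts against 0, 0 and 24. Control replicate 3 thus had 0 counts of Pax2 and Pax8, and control replicate 1 had 0 of Lhx5. Neuron markers summed to 6811, 5591 and 1863 CPM in control replicates 1 to 3, and their part in these counts was not tested. Of the genes that mature inhibitory neurons use, the glycine transporter gene Slc6a5 had 176, 107 and 0 counts and the GABA enzyme gene Gad1 had 992, 901 and 61, both with 0 in every cKO library. The second enzyme gene, Gad2, had 373, 299 and 1 counts against 0, 1 and 0. The vesicular transporter gene Slc32a1 was found in both groups, with 1048, 1377 and 61 counts against 187, 0 and 41.

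The excitatory dorsal factors were divided. Prrxl1, also called Drgx, a homeodomain factor of nociceptive circuits, had 130, 215 and 71 counts among controls and 4, 0 and 0 in the cKO libraries, without overlap. Tlx3, the selector of glutamatergic dI3 and dI5 neurons, had 16, 63 and 126 counts against 229, 0 and 0, and Tlx1 had 0 counts in all 6 libraries. Pou4f1, a POU factor of dI1 to dI3, dI5 and sensory neurons, had 748, 164 and 138 counts among controls and 564, 1 and 659 in the cKO libraries. Its log2 fold change was 0.33 (SE 1.71, edgeR adjusted p = 1), and its sign depended on single libraries: it was -0.24 without cKO replicate 3 and 0.87 without cKO replicate 2. Bhlhe22, a helix-loop-helix factor of dorsal interneurons, had 0, 240 and 0 counts against 127, 0 and 240. Foxd3, a forkhead factor of dI2 neurons and of neural crest, had 131, 245 and 0 control counts and none in the cKO libraries.

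Maf, a basic leucine zipper factor of deep dorsal horn neurons, had the highest mean level of the list. It had 1572, 1100 and 1773 counts among controls and 5118, 115 and 4472 in the cKO libraries. On the CPM scale this was 111 ± 22.6 among controls and 317 ± 99.3 in the cKO samples (SD, n = 3), and the shallow cKO replicate 2, at 202 CPM, also lay above every control. Maf supplied 24.7% to 45.3% of the summed dorsal level among controls and 47.1%, 96.6% and 39.6% in cKO replicates 1 to 3. Its log2 fold change was 1.51 (SE 1.36, edgeR adjusted p = 1) and 1.77 (SE 0.292, edgeR adjusted p = 0.444) without cKO replicate 2, the smallest edgeR adjusted p of the list in that fit. Macrophages use Maf too, and 6 of 10 microglia markers, among them Cx3cr1 and Tmem119, had 0 counts in all libraries. The sums of that list were 36.0, 23.5 and 77.9 CPM among controls and 58.6, 679 and 60.7 CPM in cKO replicates 1 to 3, and their part in the Maf result was not tested.

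Of the 7 ventral progenitor factors, 5 reached 20 counts in some library. Pax6, which is expressed across the intermediate neural tube and in radial glia, had 452, 912 and 461 counts among controls and 77, 0 and 209 in the cKO libraries, without overlap between the groups. Means were 46.2 ± 21.9 and 7.76 ± 9.08 CPM (SD, n = 3), and the log2 fold change was -2.54 (SE 1.82, edgeR adjusted p = 1). It was -3.85 without cKO replicate 3. All 9 astrocyte markers reached 20 counts in some library, and their sums were 680 to 1119 CPM among controls and 785, 682 and 651 CPM in cKO replicates 1 to 3. Within that list Gfap was at 134, 281 and 243 CPM against 44.5, 0 and 19.5 CPM, Aqp4, Aldh1l1 and Mlc1 had 0 counts in every cKO library, and Slc1a3 was at 248, 224 and 66.3 CPM against 454, 682 and 294 CPM. Their part in the Pax6 result was not tested. Irx3 and Irx5, neighbouring Iroquois genes on chromosome 8 that mark progenitors above the motor neuron domain, had 9, 148 and 119 and 0, 110 and 89 counts in the controls. They had 3, 0 and 159 and 0, 0 and 577 counts in the cKO libraries. The 2 genes were thus high in the same libraries, control replicates 2 and 3 and cKO replicate 3. Their log2 fold changes were -0.60 (SE 2.47) and 1.68 (SE 2.09, edgeR adjusted p = 1 for each). Without cKO replicate 3 the fitted value was -8.77 for Irx5 (edgeR adjusted p = 0.4), which then had no cKO count, and -5.25 for Irx3.

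Nkx6-1, the homeodomain factor of ventral progenitor domains including that of motor neurons, had 0, 177 and 60 counts among controls and 171, 0 and 37 in the cKO libraries. Dbx1, the factor of V0 progenitors, had 49 counts in control replicate 2 and 0 elsewhere. Dbx2 and Nkx2-2 had 0 counts in all libraries. Nkx2-2 marks V3 progenitors and later oligodendrocyte precursors. The 4 ventral progenitor factors seen in both groups overlapped between groups except Pax6.

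Among ventral interneuron factors the V0 pair Evx1 and Evx2 had counts only in cKO libraries. Evx1 had 0 counts in all 3 controls and 284, 0 and 850 in the cKO libraries, and Evx2 had 0 in all controls and 223, 0 and 520. Pooled over each group, with a limit of 3 control counts over the group, Evx1 was at least 576-fold and Evx2 at least 377-fold higher in the cKO samples, bounds that treat reads as independent molecules and rest on cKO replicates 1 and 3. The 2 genes lie on different chromosomes, Evx1 on chromosome 6 at 52290483 to 52295363 and Evx2 on chromosome 2 at 74483335 to 74489901 (GRCm39), each beside the posterior end of a Hox cluster. The Hox gene next to each did not share the pattern: Hoxa13 had 0, 2 and 0 counts among controls and 0 in the cKO libraries, and Hoxd13 had 46, 0 and 32 against 2, 0 and 0.

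Gata2, a zinc finger factor of V2b neurons that blood and endothelial cells also use, had 0 control counts and 322, 0 and 74 counts in the cKO libraries, at least 201-fold higher by the same pooled bound. Gata3, which acts with it in V2b neurons, had 2, 0 and 2 counts among controls and 0 in the cKO libraries. Tal1, the third factor of that class, had 0 throughout. Of 12 endothelial and mural markers, 7 reached 20 counts in some library and 4 had none (Cdh5, Flt1, Tie1 and Esam). Their sums were 866 to 2444 CPM among controls and 1060, 647 and 1290 CPM in cKO replicates 1 to 3, most of it from Acta2 of smooth muscle. The endothelial gene Cldn5 had 312, 27 and 109 counts against 307, 0 and 798, and Kdr had 446, 0 and 99 against 0, 0 and 194. The part of such cells in the Gata2 counts was not tested. Foxp2, a forkhead factor of V1 neurons, had 238, 379 and 181 counts among controls and 277, 0 and 1 in the cKO libraries (log2 fold change -1.52, SE 1.94, edgeR adjusted p = 1). Without cKO replicate 1, where nearly all its cKO counts lay, the fitted value was -7.90. En1, the defining V1 factor, had 0 counts in all libraries, as had En2 of the midbrain and hindbrain border and Sim1 of V3 neurons.

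The factors that define motor neurons had few counts or none. Mnx1, Lhx3 and Lhx4 had 0 counts in all 6 libraries. Isl1, which motor neurons share with dI3 and sensory neurons, had 64, 0 and 0 counts among controls and 0, 0 and 31 in the cKO libraries, and Isl2 had 0, 26 and 0 against 0, 0 and 40. Neurog2, which drives motor neuron progenitors and cortical neurogenesis, had 89, 172 and 114 counts among controls and 0, 0 and 40 in the cKO libraries, without overlap (log2 fold change -2.95, SE 2.71, edgeR adjusted p = 1). Without cKO replicate 3 no cKO count was left, and the fitted value was -9.68. Of 10 cholinergic motor neuron markers, 9 reached 20 counts in some library, and their sums were 96.9 to 237 CPM among controls and 360, 3.52 and 349 CPM in cKO replicates 1 to 3. Chat, the acetylcholine enzyme gene, was the one with 0 counts, and Slc18a3, the vesicular acetylcholine transporter gene, had 0, 281 and 347 counts among controls and 0, 0 and 344 in the cKO libraries.

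Foxp1, which assigns motor neurons to limb-innervating columns and is widely expressed elsewhere, made up most of the motor group. It had 528, 468 and 951 counts among controls and 1381, 261 and 949 in the cKO libraries, or 48.5 ± 18.7 and 213 ± 213 CPM (SD, n = 3). Every cKO library was above every control on the CPM scale, and the 261 counts of cKO replicate 2 amounted to 459 CPM. The log2 fold change was 2.09 (SE 1.65, edgeR adjusted p = 1), and 0.92 (SE 0.451, edgeR adjusted p = 0.767) without that library. Foxp1 made up 70.3% to 89.3% of the summed motor level among controls and at least 89.5% in each cKO library.

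Summed over the groups, the dorsal factors had 336, 349 and 288 CPM among controls and 781, 209 and 958 CPM among cKO libraries. The difference of means, cKO minus control, was 325 CPM for the dorsal factors, less than the SD of 391 CPM in the cKO group. It was 545 CPM without cKO replicate 2 and 171 CPM without cKO replicate 3. The dorsal sum without Maf was 221, 263 and 158 CPM among controls and 413, 7.04 and 578 CPM among cKO libraries. Thus cKO replicates 1 and 3 lay above the controls with or without Maf, but this was no rise of all dorsal factors. In cKO replicates 1 and 3, Lhx2 alone was at 209 and 297 CPM and Lhx9 at 89.1 and 154 CPM. Among controls Lhx2 reached at most 8.57 CPM and Lhx9 at most 16.0 CPM. Pax3, Lbx1, Prrxl1 and Lhx1 went the other way, lower in every cKO library than in every control. The ventral sums were 51.3, 139 and 67.2 CPM against 97.6, 0 and 206 CPM, a difference of 15.3 CPM that was smaller than the SD of either group. The motor sums were 49.9, 52.2 and 78.5 CPM against 99.3, 459 and 90.0 CPM, but without Foxp1 they were 11.2, 15.5 and 8.4 CPM against 0, 0 and 9.43 CPM. The motor difference was 156 CPM, less than the SD of 210 CPM in the cKO group, and 34.5 CPM without cKO replicate 2.

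**Figure D2:**
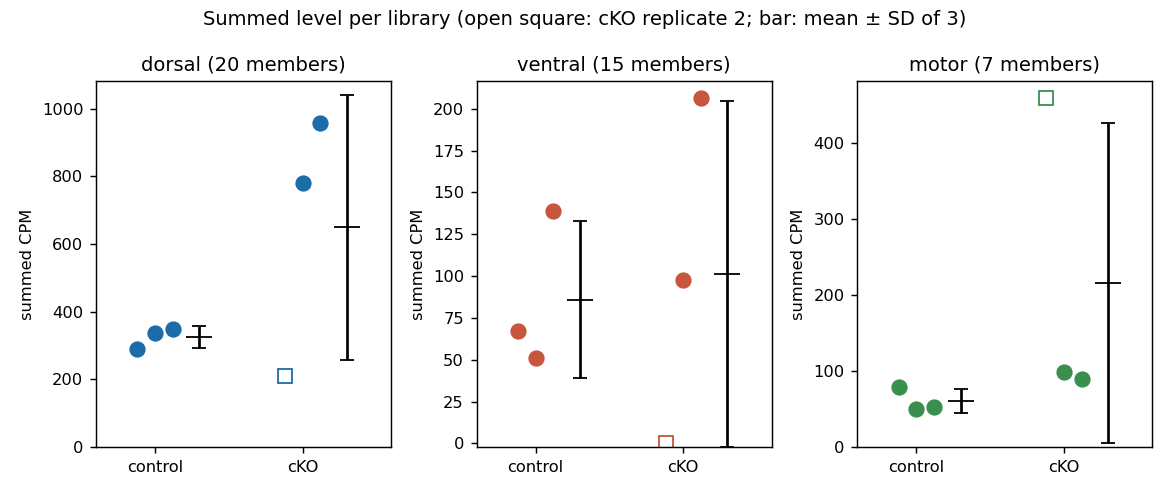
Summed CPM of the dorsal, ventral and motor factors in each library (points; the open square is cKO replicate 2), with the mean and SD of 3 libraries beside each group. Dorsal sums of cKO replicates 1 and 3 (781 and 958) lie above the controls, ventral sums overlap, and the motor sum of cKO replicate 2 (459) is the highest of the 6.

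The comparison of cKO with control asks how RNA levels differ between cells with 2 floxed copies of Ift88 and cells with 1. No factor passed edgeR's quasi-likelihood test at an adjusted p under 0.05. With all 6 libraries 20 of the 42 could be tested after the filter on low counts, and 0.00779% of 12833 genes were called higher and 0.00779% lower. At an unadjusted p under 0.05 there were 1 higher factor, Lhx2 (1.3% of genes tested), and 3 lower ones, Pax3, Lbx1 and Lhx1 (1.53%). Without cKO replicate 2, 28 factors could be tested; 0 were called, with 0% of 14562 genes called higher and 0.00687% lower. At an unadjusted p under 0.05 that fit held 7 higher factors, Atoh1, Lhx2, Lhx9, Maf, Evx1, Evx2 and Gata2 (3.06% of genes), and 3 lower ones, Pax3, Lhx1 and Pax6 (3.03%). Factors such as Evx1 entered this fit only through the group in which they are high, so these counts are no independent support for a difference.

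DESeq2 on the 6 libraries called 3 factors higher and 1 lower of 25 that received an adjusted p, at a threshold of 0.05, against 0.525% of genes higher and 0.565% lower. The higher factors were Evx2, Gata2 and Atoh1 (DESeq2 adjusted p = 0.00146, 0.0116 and 0.0377), all at 0 in the controls, and the lower one was Lhx1 (0.0097). Evx1, with the same libraries high as Evx2, had a DESeq2 adjusted p of 0.14, and Lhx2 of 0.0583. These 3 higher factors did not pass the low-count filter of edgeR in the 6 libraries. Over all settings run in edgeR and DESeq2 the adjusted p ran up to 1 for each named factor, from 0.0097 for Lhx1, 0.0583 for Lhx2, 0.0975 for Pax3, 0.248 for Foxp1, 0.444 for Maf and 0.4 for Irx5.

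Counted by overlap alone, 2 of the 20 testable factors, Maf and Foxp1, were higher in every cKO library than in every control (1.33% of all genes tested). Lower in every cKO library were 6 factors, Pax3, Lbx1, Prrxl1, Lhx1, Pax6 and Neurog2 (11.1% of genes). For Prrxl1 the 0 of cKO replicate 2 is compatible with up to 5.28 CPM, more than the 5.23 CPM of control replicate 3. Without cKO replicate 2 the higher set held 9 of 28 factors, these 2 with Olig3, Atoh1, Lhx2, Lhx9, Evx1, Evx2 and Gata2 (13% of genes), and the lower set held 6 factors with the same names (12.6%). Of the 9, Atoh1, Evx1, Evx2 and Gata2 had 0 in all controls and could be tested only through their cKO counts. The median log2 fold change of the 20 tested factors was -0.40, beside -0.44 over all genes tested. Without cKO replicate 2 the median was 0.57 for the 28 tested factors, beside -0.056 over all genes.

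**Figure D3:**
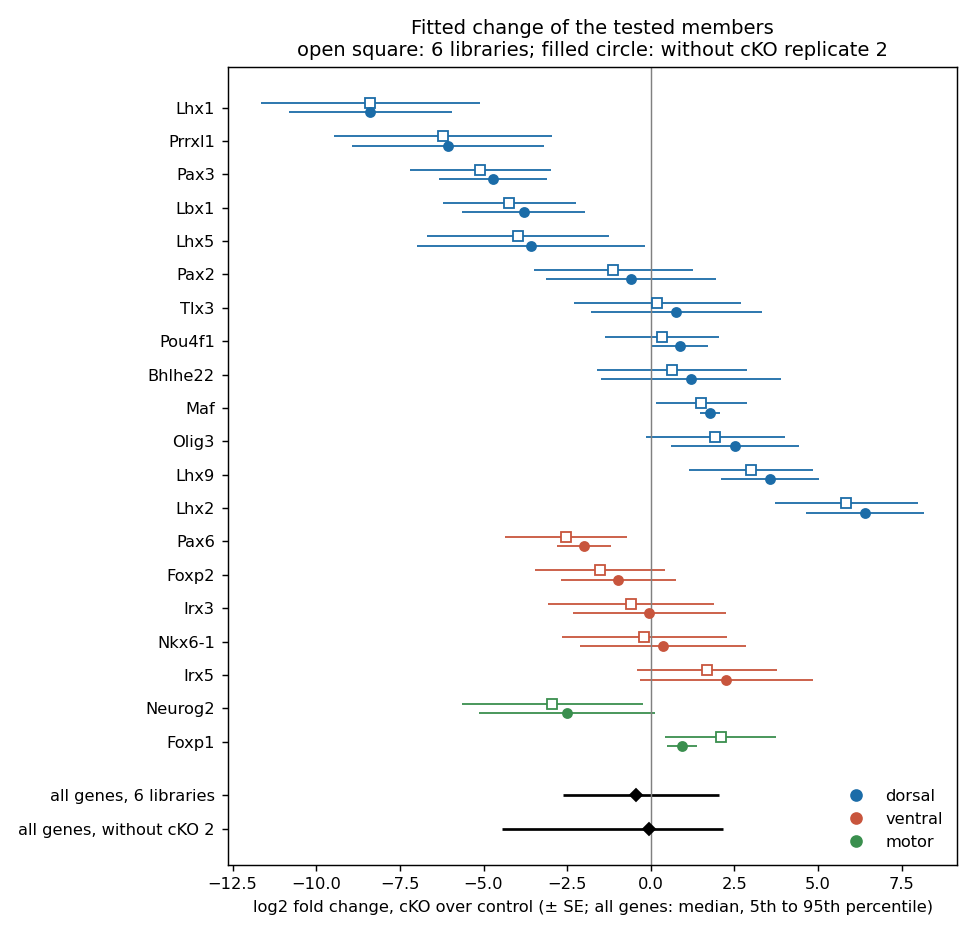
Fitted log2 fold change, cKO over control, with SE for the 20 factors testable in all 6 libraries (open squares) and for the same factors without cKO replicate 2 (filled circles), with the median and the 5th to 95th percentile of all genes tested in the lowest rows. With all 6 libraries Lhx1 lies lowest at -8.39 and Lhx2 highest at 5.85. In that fit the bars of several dorsal and ventral factors cross 0, among them Olig3, Tlx3, Pou4f1, Irx3, Irx5 and Foxp2.

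The factors can be ordered by the group in which they were seen. At least 20 counts in a control and fewer than 20 in every cKO library were found for 7 of 31 factors, Pax7, Ptf1a, Foxd3, Prrxl1, Pax8, Lhx1 and Dbx1 (14.8% of all genes with 20 counts anywhere). The reverse was found for 4 factors, Atoh1, Evx1, Evx2 and Gata2 (6.11%). The other 20 reached 20 counts in both groups. Foxd3 was at least 82.3-fold and Pax8 at least 95.9-fold lower in the cKO samples by the pooled bound of 3 cKO counts, while Atoh1 was at least 153-fold higher by the bound of 3 control counts. These bounds treat reads as independent molecules too, and pooling leaves out the variation between libraries. Control replicate 3 also had 0 counts of Foxd3 and Pax8, as every cKO library did. For Atoh1, cKO replicate 2 had 0 counts, as every control did.

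**Figure D4:**
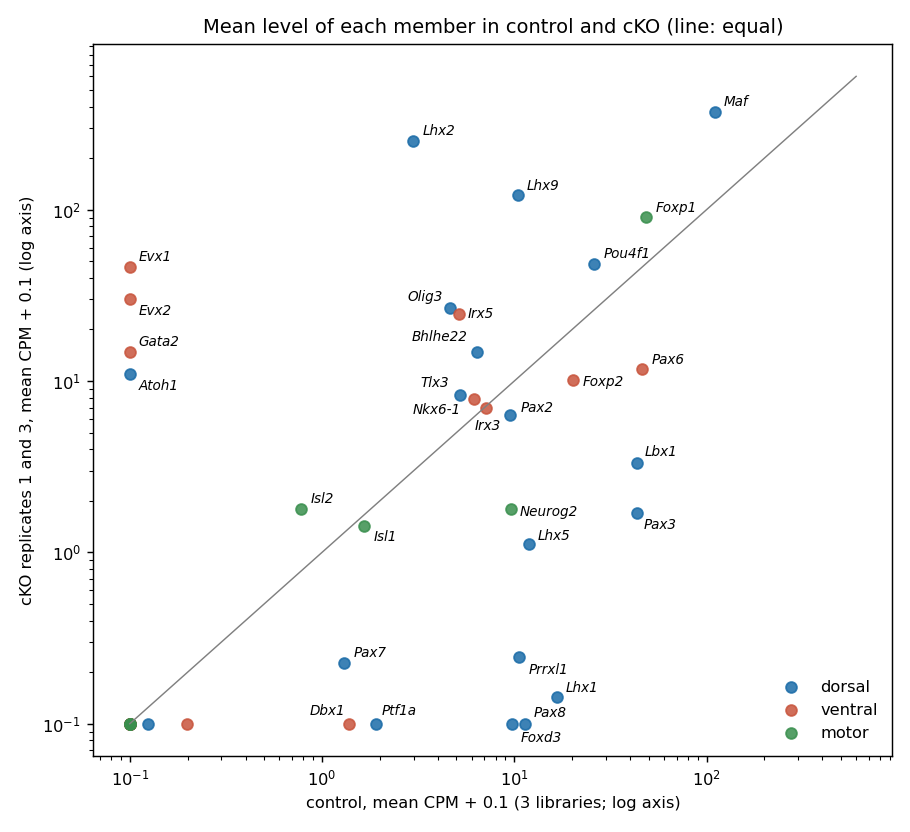
Mean CPM + 0.1 of each factor in the 3 controls (horizontal, log axis) and in cKO replicates 1 and 3 (vertical, log axis), coloured by domain; the line marks equal levels. Evx1, Evx2, Gata2 and Atoh1 lie on the left edge with 0 in the controls, Foxd3 and Pax8 on the bottom edge, and Maf, at 111 and 374 CPM, at the top right.

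The stretches just upstream of the start site are shown for 3 factors seen only in the cKO libraries and 3 seen only in the controls. These factors had at most 1 count in the whole of the other group. Others such as Gata2, Ptf1a and Dbx1 met this too and are not shown. They are the 250 bases before the start in RefSeq's promoter table (GRCm38.p6), which has an entry for 34 of the 42 factors. Coordinates are chr6:64728875-64729124 on the forward strand for Atoh1, chr6:52313248-52313497 on the forward strand for Evx1, chr2:74659558-74659807 on the reverse strand for Evx2, chr4:99656049-99656298 on the forward strand for Foxd3, chr2:24475600-24475849 on the reverse strand for Pax8 and chr11:84525535-84525784 on the reverse strand for Lhx1. Capitals mark TAAT on either strand, the core that homeodomain proteins read, and CANNTG, the E-box read by helix-loop-helix proteins; matches of one motif cannot overlap those of the other.
Atoh1: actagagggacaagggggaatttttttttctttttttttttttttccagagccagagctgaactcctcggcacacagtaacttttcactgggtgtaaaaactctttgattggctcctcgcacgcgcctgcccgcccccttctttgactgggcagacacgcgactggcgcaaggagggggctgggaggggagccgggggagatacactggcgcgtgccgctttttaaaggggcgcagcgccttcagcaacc
Evx1: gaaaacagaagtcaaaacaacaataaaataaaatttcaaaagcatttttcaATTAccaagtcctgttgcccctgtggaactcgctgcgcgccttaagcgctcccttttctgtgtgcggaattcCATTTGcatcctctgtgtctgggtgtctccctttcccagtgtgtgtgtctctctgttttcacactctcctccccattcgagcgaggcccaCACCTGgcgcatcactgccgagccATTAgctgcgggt
Evx2: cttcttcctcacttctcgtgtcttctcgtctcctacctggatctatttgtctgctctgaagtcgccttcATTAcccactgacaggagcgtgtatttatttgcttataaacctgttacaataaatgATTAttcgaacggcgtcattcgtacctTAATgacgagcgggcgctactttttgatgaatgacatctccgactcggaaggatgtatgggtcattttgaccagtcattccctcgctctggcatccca
Foxd3: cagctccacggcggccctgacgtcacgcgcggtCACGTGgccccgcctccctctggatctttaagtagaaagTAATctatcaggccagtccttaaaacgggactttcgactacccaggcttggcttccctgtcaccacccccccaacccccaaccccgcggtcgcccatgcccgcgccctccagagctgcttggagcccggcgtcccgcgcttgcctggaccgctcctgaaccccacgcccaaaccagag
Pax8: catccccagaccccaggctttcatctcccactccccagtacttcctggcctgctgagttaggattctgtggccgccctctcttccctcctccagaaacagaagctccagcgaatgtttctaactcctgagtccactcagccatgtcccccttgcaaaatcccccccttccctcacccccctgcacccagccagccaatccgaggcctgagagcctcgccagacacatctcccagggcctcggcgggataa
Lhx1: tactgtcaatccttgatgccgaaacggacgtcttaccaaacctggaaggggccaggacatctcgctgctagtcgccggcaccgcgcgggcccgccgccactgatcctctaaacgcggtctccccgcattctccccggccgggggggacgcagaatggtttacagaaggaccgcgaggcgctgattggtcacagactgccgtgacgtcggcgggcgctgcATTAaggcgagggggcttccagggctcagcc
Evx1 holds 2 TAAT cores and 2 E-boxes, Evx2 holds 3 TAAT cores, Foxd3 holds 1 of each, and Lhx1 holds 1 TAAT core. Neither motif is in the Atoh1 and Pax8 windows. The 34 factors with an entry have 42 windows, so some factors have more than 1. Of these 42 windows, 45.2% hold TAAT and 45.2% hold CANNTG, beside 54.9% and 66.2% of all 32851 windows. The median GC content was 62% for the factors' windows and 52.4% for all windows, and a match is a description of these letters only.

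Other regional factors set the 42 in context. Of 53 further neural tube transcription factors, 41 had at least 20 counts in some library and 12 did so in each of the 5 deeper ones. The most abundant of them by mean CPM was Zic1, a zinc finger factor of dorsal neural tube and meninges, with 26762, 21067 and 16157 counts among controls and 32704, 11 and 24078 in the cKO libraries. None of the 27 that could be tested passed edgeR's test. At an unadjusted p under 0.05 there were 1 higher and 1 lower, and DESeq2 called 2 higher and 0 lower. Their median log2 fold change was 0.14, beside -0.44 over all genes.

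Hox genes, which give position along the body axis, were detected in 28 of 39 cases, and 19 reached 20 counts in each of the 5 deeper libraries. Their summed level of 1944 to 5584 CPM in the controls was above the summed level of the 42 factors in each of the 6 libraries (434 to 541 CPM in the controls). Of 30 forebrain factors, 18 were detected and 9 had no count, and 42.7% to 70.9% of their summed level in the 5 deeper libraries came from Id2 and Lmo4, which are not restricted to forebrain. No Hox or forebrain gene passed edgeR's or DESeq2's test (24 and 12 tested in edgeR). At an unadjusted p under 0.05 in edgeR there were 0 higher and 1 lower Hox genes and 1 higher and 2 lower forebrain genes.

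**Figure D5:**
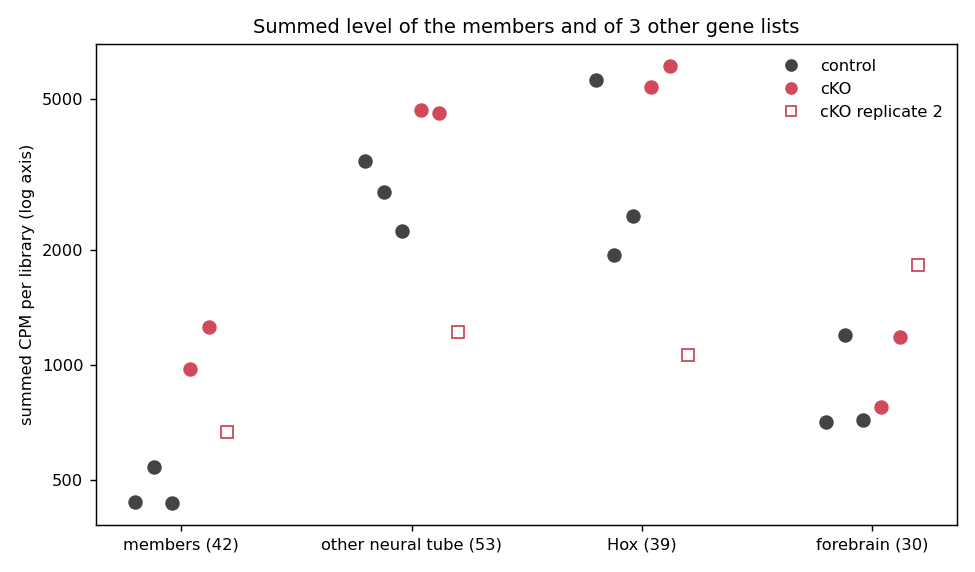
Summed CPM per library (log axis) of the 42 factors, 53 other neural tube factors, 39 Hox genes and 30 forebrain factors, with controls in dark grey, cKO in red and cKO replicate 2 as an open square. The 42 factors sum to 434 to 541 CPM among controls and 978 and 1254 CPM in cKO replicates 1 and 3, and Hox sums of the 2 groups overlap.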

How the data were processed

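RNA of 6 pools of mouse cells, 3 per group, was sequenced from the 3' ends of transcripts with the QuantSeq forward kit. Raw read counts per gene were made by the authors with featureCounts 2.0.0 on exons of Ensembl 104 (GRCm39), per the file headers, and no option for strand, multimapping or overlapping genes is named there. STAR, FastQC and DESeq2 are named in the submitters' processing notes, with versions not given in the sources used here. How the cells were isolated, and strain and sex, are not given in the labels.

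Groups follow the genotype labels. Symbols were matched to 52083 of 55416 gene identifiers. CPM are counts scaled to a library total of 1000000. Differences were tested with edgeR 4.0.16 (R 4.3.3; TMM scaling, filterByExpr, robust quasi-likelihood test, two-sided, Benjamini-Hochberg adjustment over all genes tested, threshold 0.05), after a check on simulated data. DESeq2 1.42.0, RLE scaling, no filter, the replicate number as a block, each library left out, other count minimums and libraries thinned to 568509 counts were the alternatives. The SE given with an edgeR log2 fold change is not an output of edgeR. It was taken as the absolute log2 fold change divided by the square root of the quasi-likelihood F statistic, and is approximate. A factor counted as detected at 20 counts, and the limit for a count of 0 was taken as 3 counts. Figures were drawn with matplotlib 3.10.9.

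The factors and the comparison and marker lists were chosen with earlier results of these data known. Fold changes are printed for the 4 tested factors with the highest mean CPM in each of the dorsal, ventral and motor groups (only 2 motor factors could be tested), and for every factor at an unadjusted p under 0.05. Of the comparison lists the 2 genes with the highest mean CPM may be named. Other genes outside the list, such as Barhl1, Gfap, Cldn5, Gad1, Slc6a5, Hoxa13, Hoxd13, Emx1, Emx2, Slc18a3, Pdgfra, Cspg4, Olig1 and Olig2, and the factors whose promoters are shown, were chosen after their values were seen. Some genes of the comparison lists are not reported by name here.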

Additional observations from a re-analysis of the deposited data

How the results depend on the processing

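Over all genes, edgeR's count of 1 higher call became 14 with RLE scaling, 22 with no filter on low counts, 0 with the replicate number as a block and 65 with DESeq2, and it ranged from 0 to 6 when each library was left out. The count of 1 lower call became 2 with RLE scaling and 70 with DESeq2. For the 42 factors, 0 higher and 0 lower calls became 3 and 1 with DESeq2 and stayed at 0 under every other setting run. The log2 fold change of Pou4f1 (0.33) was -0.21 with the block and ran from -0.24 to 1.53 with a library left out, being -0.0012 without control replicate 2, -0.062 without control replicate 3 and -0.24 without cKO replicate 3. That of Irx5 (1.68) was -0.27 with the block and ran from -8.77 to 2.35, with the lowest value without cKO replicate 3. That of Irx3 (-0.60) ran from -5.25 to 0.0046, the highest without control replicate 2. The cause was not tested. The summed motor difference of 156 CPM was -8.57 CPM without Foxp1 and ran from 34.5 to 219 CPM with a library left out, lowest without cKO replicate 2. The dorsal difference of 325 CPM ran from 171 to 545 CPM and was 119 CPM without Maf. The ventral difference of 15.3 CPM ran from -37.1 to 65.9 CPM with a library left out. The median log2 fold change over all genes was -0.44, and it was -0.28 with RLE scaling (-0.23 for the factors) and -1.23 with the block (-1.08 for the factors). The medians of factors and all genes lay further apart with a cKO library left out. They were -2.08 and -0.82 without cKO replicate 1, 0.57 and -0.056 without cKO replicate 2, and -2.38 and -0.90 without cKO replicate 3.

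Depth limited detection: 31 factors had 20 counts in some library, and 12 did when all libraries were thinned to the total of cKO replicate 2. At that equal depth, any count at all was found for 5 factors in cKO replicate 2, against 16 to 22 factors in the other libraries. Thus cKO replicate 2 differed from the others at equal depth too, and the reason was not tested. Same-numbered libraries correlated at 0.0791, 0.0511 and 0.0112 in their deviations from group means. The other pairs ran from -0.0677 (control replicate 1 with cKO replicate 2) to 0.013 (control replicate 3 with cKO replicate 2). Values this small do not settle whether libraries were paired by number, and the block is given only here.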
